A study of Mus musculus with 19 samples.

Results

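The 6 genes described here mark the exit of mouse pluripotent cells from the naive state, and were followed through the deposited count table: Fgf5, Pou3f1, Otx2, Zic2, Zic5 and Fst. They were chosen by name, with earlier results of these data known. All 6 were among the 52143 genes of the table and the 19700 genes tested. The RNA came from induced pluripotent stem cells of the mouse, made from fibroblasts of day 14.5 embryos of heterozygous db parents with a STEMCCA lentivirus carrying Oct4, Sox2, Klf4 and cMyc. The control group, wild type for the leptin receptor gene Lepr, had 4 lines (aB6_A5, aB6_B1, bB6_A5 and bB6_B1) and 7 libraries. The db/db group, homozygous for the db mutation, had 4 lines (adb_db5, adb_db7, bdb_db5 and bdb_db7) and 8 libraries. The corrected group had 2 lines (db_c_1 and db_c_2, 4 libraries), derived from db/db cells by gene correction with CRISPR-Cas9. Every line carries the same reprogramming vector, and the db/db line that was corrected is not given in the sources used here.

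Naive pluripotency is the state of the early epiblast and of stem cells kept in its image. When cells leave it they pass through a formative phase into the primed state, in which they can respond to signals for germ layers. Otx2 and Pou3f1 (also called Oct6) are transcription factors that take part in this step, Zic2 and Zic5 are zinc finger factors of the same window and of the early neural plate, Fgf5 is a secreted growth factor and the classic marker of primed epiblast, and Fst encodes follistatin, a secreted protein that binds and blocks activin. Naive cultures hold these transcripts at low but measurable levels.

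The libraries held 27333914 to 41203703 estimated counts (median 34455891), and counts of the duplicates of a line were summed, so the line was the replicate. The labels do not say that lines or duplicates came from separate cultures, so the spread behind the p-values is that among these lines and may be technical. Lines whose names end alike (A5, B1, db5, db7, and the pair of corrected lines) were near copies: the common biological coefficient of variation was 5.49% within such names and 18.9% within the 3 groups. Each shared name of control and db/db lines was therefore also counted as a single sample. The value is given where that ends a call. The corrected lines stayed separate in that fit, so its calls involving them still treat near copies as replicates. The identity of the cells was checked on 10 genes of pluripotent stem cells (Pou5f1, Sox2, Nanog and others), all of which were above 1 CPM, with a summed level of 6079 to 7178 CPM per line. Reads from the vector's Oct4 and Sox2 could not be told apart from those of the cells' own genes. In the second library of adb_db7, Gm42418 took 4.81% of all counts, against 0.0688% to 0.514% in the other libraries. Lepr itself was at 0.348 to 0.46 CPM in control, 0.186 to 0.371 in db/db and 0.606 to 0.718 in corrected lines. The db mutation changes its splicing, so this level does not check the genotype.

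On the GRCm38 build, Fgf5 lies at chr5:98254184-98277030 on the plus strand, Fst at chr13:114452290-114458951 on the minus strand, and Otx2 at chr14:48657677-48673819 on the minus strand. Zic5 (chr14:122456795-122465677, minus) and Zic2 (chr14:122475435-122479852, plus) stand head to head, 9758 bases apart. Pou3f1 (chr4:124656807-124660655, plus) is on the chromosome of Lepr, 22.8 megabases from it. The RefSeq table (GRCm38.p6) gave the start of 3 of the 6 genes, Fgf5, Otx2 and Zic5. The bases before listed starts are shown because they make visible how unlike these stretches are among jointly named genes. Capitals mark a match to the GC box GGGCGG on either strand, the only motif found in the sequences printed. Bases are given 5′ to 3′ on the strand of the gene and stop where an annotated exon begins. The Otx2 stretch lies inside the gene span given above, before an internal start. Those of Fgf5 and Zic5 adjoin the start of the gene.

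Fgf5, chr5:98253934-98254183, plus strand: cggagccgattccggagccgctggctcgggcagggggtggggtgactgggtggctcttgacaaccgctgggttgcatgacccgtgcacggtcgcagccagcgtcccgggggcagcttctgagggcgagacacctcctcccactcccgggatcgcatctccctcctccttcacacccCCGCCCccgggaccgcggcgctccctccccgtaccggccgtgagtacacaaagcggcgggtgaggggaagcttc

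Otx2, most upstream of 4 listed starts, chr14:48667645-48667894, minus strand: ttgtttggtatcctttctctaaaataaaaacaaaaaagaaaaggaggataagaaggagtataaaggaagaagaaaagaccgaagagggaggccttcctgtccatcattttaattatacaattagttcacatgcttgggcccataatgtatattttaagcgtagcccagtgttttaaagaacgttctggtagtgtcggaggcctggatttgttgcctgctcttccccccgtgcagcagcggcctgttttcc

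Zic5, chr14:122465678-122465908, minus strand: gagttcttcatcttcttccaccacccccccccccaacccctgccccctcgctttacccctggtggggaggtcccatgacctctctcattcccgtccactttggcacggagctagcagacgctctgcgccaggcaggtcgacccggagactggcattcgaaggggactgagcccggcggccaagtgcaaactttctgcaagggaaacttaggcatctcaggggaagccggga

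The 250 bases before the start of Fgf5 held 24 CpG dinucleotides, more than in 88.0% of the 32851 promoters of the table (median 6), and the corresponding windows held 11 for Zic5 and 6 to 14 for the 4 listed starts of Otx2. The motifs searched on both strands were the POU octamer ATGCAAAT, the Otx site GGATTA, the GC box GGGCGG and the TCF/LEF site CTTTGAT. They occurred in 1.6%, 6.25%, 32.7% and 3.21% of all promoters of that length. The GC box of Fgf5 and a single GGATTA before the Otx2 start with 14 CpG dinucleotides (in exonic sequence, not printed) were the matches in these 3 genes. A match describes the letters and not a bound site.

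Levels per length of exon, averaged over the 10 lines, ordered the genes as Zic2 (15.8 CPM per kilobase), Zic5 (11.6), Otx2 (6.22), Pou3f1 (4.1), Fst (2.23) and Fgf5 (0.212). CPM is the count scaled to the size of the library (by TMM). The range between lines was widest for Fgf5, the gene at the lowest level, and narrowest for Zic2 and Zic5, at the highest levels. Otx2 departed from that order. The mean of the highest shared name exceeded that of the lowest 7.99-fold for Fgf5, 5.1-fold for Otx2, 3.05-fold for Fst, 2.36-fold for Pou3f1, 1.4-fold for Zic2 and 1.35-fold for Zic5. Lines of the same shared name differed at most 1.19-fold for any of the 6 genes.

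**Figure D1:**
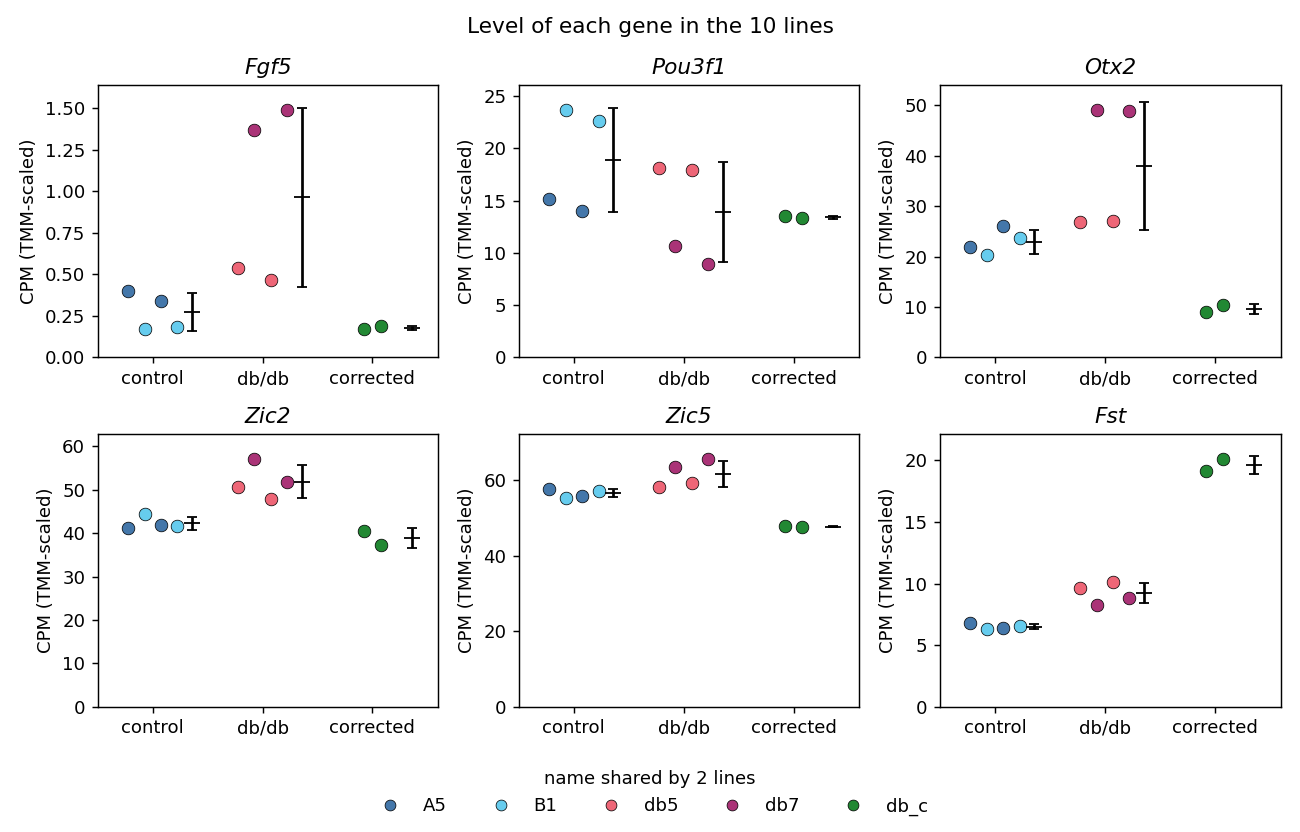
CPM (y axis, linear from 0) of each gene in the 4 control, 4 db/db and 2 corrected lines; points are lines coloured by the name they share, and the bar beside them is the mean ± SD of the group. For Fgf5, Otx2 and Pou3f1 the points fall into pairs by shared name, with db7 highest for Fgf5 and Otx2 and lowest for Pou3f1, and Fst is highest in both corrected lines.

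The first comparison asks which of these genes differ with the db mutation. Otx2, Fgf5, Zic2 and Fst were higher in db/db than in control lines, and Pou3f1 and Zic5 were not called. The 4 genes called of 6 stand beside a background of 16.9% of all 19700 genes (7.41% higher and 9.5% lower). Lines of the groups did not overlap for 5 of the 6 (not for Pou3f1), against 23.3% of all genes. As the 6 were chosen with earlier results known, these shares describe them and do not test them as a set. The median log2 difference of the 6 was 0.40, and that of all genes was 0.00. All 4 calls were lost when each shared name counted as a single sample; that fit called 0.161% of 21134 genes (34 genes, and 3351 at an unadjusted p under 0.05).

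Fgf5, the ligand, was close to the limit of counting. Control lines had 0.397 (aB6_A5), 0.173 (aB6_B1), 0.342 (bB6_A5) and 0.185 CPM (bB6_B1), from 12 to 23 counts each. The db/db lines had 0.538 (adb_db5), 1.37 (adb_db7), 0.464 (bdb_db5) and 1.49 CPM (bdb_db7), from 30 to 95 counts. The corrected lines had 0.17 and 0.188 CPM, from 13 counts each. All 4 db/db lines thus stood above all control lines, the db7 pair far above the rest, and the corrected lines stood at the level of the B1 controls. The db/db mean of 0.964 ± 0.538 (SD, n = 4) exceeded the control mean of 0.274 ± 0.112 (n = 4) by 1.84 ± 0.45 (SE) on the log2 scale (edgeR quasi-likelihood test, adjusted p = 0.022). Counting each shared name as 1 sample, the difference was 1.84 (adjusted p = 0.24), and without both db7 lines it was 0.91 (adjusted p = 0.11). Over its 27 alternatives the difference ranged from 0.91 to 2.41 and the adjusted p from 0.00039 to 0.24.

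Fst, the activin antagonist, was held within narrow limits in each group. Control lines had 6.78, 6.34, 6.4 and 6.53 CPM (order as above). The db/db lines had 9.63 (adb_db5), 8.29 (adb_db7), 10.1 (bdb_db5) and 8.81 CPM (bdb_db7). The corrected lines had 19.1 and 20.1 CPM. The lines of the 3 groups did not overlap, and the corrected lines were highest. Among single libraries, the second of adb_db7 (6.12 CPM) lay inside the range of the control libraries (5.67 to 7.03 CPM). The db/db mean of 9.21 ± 0.816 (n = 4) was above the control mean of 6.51 ± 0.194 (n = 4) by 0.50 ± 0.09 on the log2 scale (edgeR adjusted p = 0.005). Counting shared names, the adjusted p was 0.2, the highest of its 28 alternatives, in which the difference ranged from 0.39 to 0.60.

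Otx2 had 21.8 (aB6_A5), 20.4 (aB6_B1), 26.0 (bB6_A5) and 23.6 CPM (bB6_B1) in control lines. It had 26.8 (adb_db5), 49.1 (adb_db7), 27 (bdb_db5) and 48.8 CPM (bdb_db7) in db/db lines, and 8.93 and 10.3 CPM in corrected lines. The lowest db/db line exceeded the highest control line by under 1 CPM, while the db7 lines stood far above both and the corrected lines below all others. The mean was 37.9 ± 12.7 (n = 4) in db/db and 22.9 ± 2.42 (n = 4) in control lines, a log2 difference of 0.73 ± 0.21 (edgeR adjusted p = 0.041). This call was lost in 17 of 28 alternatives. Without both db7 lines the log2 difference was 0.23 (adjusted p = 0.17), without both db5 lines it was 1.09 (adjusted p = 0.00036), and counting shared names it was 0.70 (adjusted p = 0.3). The difference between groups therefore rested on the db7 lines.

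Zic2 had 41.3, 44.5, 41.8 and 41.7 CPM in the control lines, 50.6 (adb_db5), 57.1 (adb_db7), 48.0 (bdb_db5) and 51.7 CPM (bdb_db7) in the db/db lines, and 40.5 and 37.3 CPM in the corrected lines. Every db/db line was above every other line. The log2 difference of 0.29 ± 0.07 between db/db (51.9 ± 3.81, n = 4) and control lines (42.3 ± 1.46, n = 4) had an edgeR adjusted p of 0.016, and of 0.26 counting shared names. The difference ranged from 0.22 to 0.36 over 28 alternatives.

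Its neighbour Zic5 had 57.7, 55.4, 55.8 and 57.2 CPM in control lines, 58.2 (adb_db5), 63.4 (adb_db7), 59.2 (bdb_db5) and 65.6 CPM (bdb_db7) in db/db lines, and 47.9 and 47.5 CPM in corrected lines. The db/db lines were again above all others, but those of db5 by a small margin. The log2 difference from control of 0.12 ± 0.05 was not called (95% interval 0.00 to 0.24, edgeR adjusted p = 0.14). Between the genes of this pair lies 2610035F20Rik, a transcript that starts 236 bases from Zic2 on the other strand. Its mean level was 0.266 CPM in control and 0.606 CPM in db/db lines, a log2 difference of 1.15 (edgeR adjusted p = 0.017). Counting shared names, the adjusted p was 0.18, and the call was lost in 4 of 27 alternatives.

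Pou3f1 did not follow the groups. Control lines had 15.2 (aB6_A5), 23.7 (aB6_B1), 14 (bB6_A5) and 22.6 CPM (bB6_B1). The db/db lines had 18.1 (adb_db5), 10.7 (adb_db7), 17.9 (bdb_db5) and 8.95 CPM (bdb_db7), and the corrected lines had 13.5 and 13.3 CPM. The groups overlapped, and the order of the means was B1, db5, A5, corrected and db7. A5 and corrected lines, neighbours in that order, lay within 2 CPM of each other. The log2 difference between db/db and control lines of -0.44 ± 0.26 was not called (95% interval -1.01 to 0.13, edgeR adjusted p = 0.26). Without both db5 lines the difference was -0.95 (adjusted p = 0.02, range over 28 alternatives 0.02 to 0.91).

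**Figure D2:**
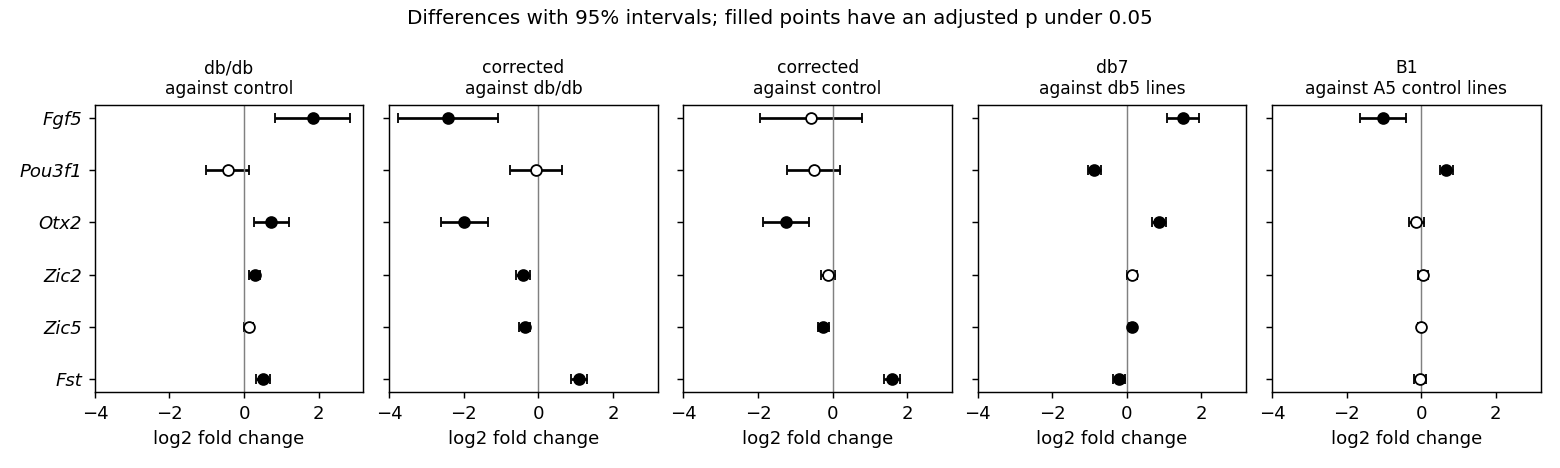
Log2 fold change (x axis) of each gene in 5 comparisons, named above each panel as the first group against the second; points are estimates, bars 95% intervals, and filled points have an adjusted p under 0.05. Fgf5 and Otx2 lie on the same side of 0 in the db/db and db7 panels, Fst lies to the right in all 3 group panels, and Pou3f1 is filled in the 2 clone panels alone.

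The corrected lines ask which differences return after repair of the mutation. Against db/db lines, Otx2, Fgf5, Zic2 and Zic5 were lower and Fst was higher, while Pou3f1 was not called. These 5 calls of 6 stand beside 36.7% of all genes called (18.7% higher, 18.0% lower), and the 5 genes without overlap of lines beside 60.6%. Otx2 fell by 1.98 ± 0.28 on the log2 scale, from 37.9 ± 12.7 to 9.59 ± 0.943 CPM (n = 2, edgeR adjusted p = 0.00074). Fgf5 fell by 2.42 ± 0.60 (adjusted p = 0.012), Zic2 fell by 0.41 ± 0.08 (adjusted p = 0.0037) and Zic5 fell by 0.37 ± 0.07 (adjusted p = 0.0024). Fst rose by 1.09 ± 0.10 to 19.6 ± 0.754 CPM (adjusted p = 9.1e-05), away from the control level. Pou3f1 differed by -0.06 ± 0.31 (95% interval -0.76 to 0.64). Counting each shared name as 1 sample, where 15.5% of genes were called, the adjusted p was 0.054 for Fgf5 and the other 4 calls held. The corrected lines, near copies, were still separate samples in that fit. The db/db lines enter both this and the first comparison, so the results of these comparisons share samples.

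Against control lines, 3 of the 6 were called: Otx2 and Zic5 lower and Fst higher. The background was 33.2% of genes (16.2% higher, 17.0% lower), 61.7% had no overlap of lines against 5 of the 6 here, and 12.1% were called counting shared names. Otx2 fell by 1.26 ± 0.27 (edgeR adjusted p = 0.007), so its corrected level was below that of both other groups. Zic5 fell by 0.25 ± 0.07 (adjusted p = 0.018, and 0.11 counting shared names). Fst rose by 1.59 ± 0.10 (adjusted p = 2.2e-05). Zic2 differed by -0.12 (95% interval -0.30 to 0.06), Pou3f1 by -0.50 (-1.21 to 0.21) and Fgf5 by -0.58 (-1.94 to 0.79), and none of these passed the test. With scaling by library size alone, the median of all genes shifted to 0.19 in corrected against db/db and to 0.12 in corrected against control. The Zic5 differences were then -0.20 (adjusted p = 0.05) and -0.11 (adjusted p = 0.23), still below those medians. Over its alternatives the adjusted p of Zic5 ran from 4.3e-08 to 0.05 in the former comparison and from 0.00049 to 0.23 in the latter.

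Clones of a single genotype also differed in some of the 6 genes. Between db7 and db5 lines, both db/db, 5 of the 6 were called, against 42.0% of all genes (20.4% higher, 21.5% lower in db7). Otx2 was 1.82-fold higher in db7 (48.9 ± 0.215 against 26.9 ± 0.171 CPM, n = 2 each, log2 0.86 ± 0.09, edgeR adjusted p = 1.3e-05). Fgf5 was 2.84-fold higher (1.43 ± 0.0818 against 0.501 ± 0.0524 CPM, adjusted p = 0.00012) and Zic5 1.1-fold higher (adjusted p = 0.016). Pou3f1 went the other way, 1.84-fold lower in db7 (9.8 ± 1.21 against 18.0 ± 0.206 CPM, log2 -0.88 ± 0.08, adjusted p = 6.7e-06). Fst was 1.15-fold lower (adjusted p = 0.039). Without the second library of adb_db7, in which Gm42418 was high, the Fst difference was -0.09 on the log2 scale (adjusted p = 0.38), and over 23 alternatives its adjusted p ran from 0.019 to 0.38. Zic2 was not called (log2 0.14, 95% interval 0.01 to 0.27, adjusted p = 0.078). The calls of Otx2, Fgf5 and Pou3f1 held in all alternatives tried for them.

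Between B1 and A5 lines, both control, 2 of the 6 were called, against 38.8% of all genes (19.1% higher, 19.7% lower in B1). Pou3f1 was 1.59-fold higher in B1 (23.2 ± 0.783 against 14.6 ± 0.885 CPM, n = 2 each, edgeR adjusted p = 4.2e-05). Fgf5 was 2.03-fold lower in B1 (0.179 ± 0.00908 against 0.369 ± 0.0393 CPM, adjusted p = 0.017), on 12 and 13 counts in the B1 lines. Otx2 (log2 -0.13, 95% interval -0.33 to 0.07), Zic2 (0.05, -0.08 to 0.19), Zic5 (-0.01, -0.10 to 0.08) and Fst (-0.03, -0.20 to 0.14) were not called. Pou3f1 and Fgf5 thus differed between clones in both genotypes, and in each the clone with more Fgf5 had less Pou3f1.

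The duplicate libraries of a line did not agree for Otx2. In all 7 control and db/db lines with libraries numbered 1 and 2, Otx2 was higher in number 2, by 1.12-fold to 1.55-fold. Fst was lower in number 2 in the same 7 lines, with a ratio of the second to the first of 0.619 to 0.927, and Pou3f1 was lower in 6 of 7. Zic2 and Fgf5 were higher in 4 of 7, and Zic5 was higher in 1 and lower in 5. What the number stands for is not given in the sources used here, and line aB6_A5 has number 1 alone. Among libraries numbered 1, Otx2 stood at 21.7 to 22.1 CPM in A5, 19.3 to 20.3 in B1, 21.5 in both db5 lines and 40.6 to 41.7 in db7. Among those numbered 2 it stood at 30.4, 21.6 to 26.8, 32.5 to 33.3 and 57.3 to 58.7 CPM, in the same order. Within each number db7 was well above the other names. The db5 libraries lay inside the range of the control libraries in number 1 and above it in number 2.

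Fits within a number were added after these values were seen. Otx2 differed between db/db and control lines by 0.59 on the log2 scale in number 1 (adjusted p = 0.095) and by 0.79 in number 2 (adjusted p = 0.062). Fgf5 had 1.94 (adjusted p = 0.025) and 1.81 (adjusted p = 0.067), Zic2 had 0.27 (adjusted p = 0.05, not called) and 0.29 (adjusted p = 0.021), and Fst had 0.52 (adjusted p = 0.0026) and 0.51 (adjusted p = 0.056). The directions were the same in both numbers. Between db7 and db5 lines, Otx2 differed by 0.94 and 0.83, Pou3f1 by -0.89 and -0.86, and Fgf5 by 1.28 and 1.79, each called in both numbers, whereas Fst was called in neither (adjusted p = 0.31 and 0.062).

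**Figure D3:**
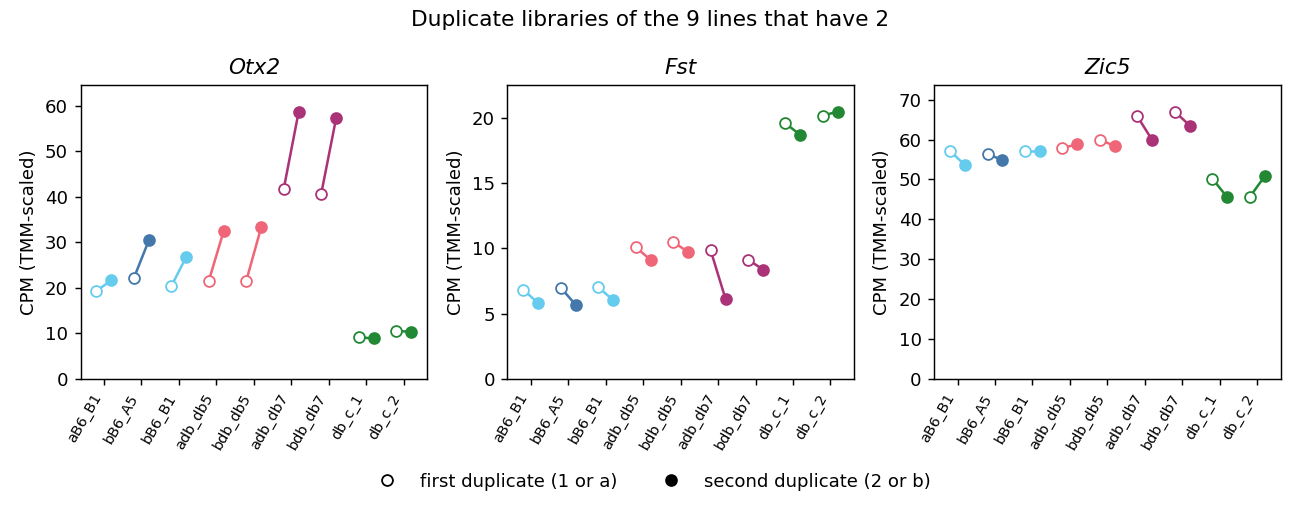
CPM (y axis, linear from 0) of Otx2, Fst and Zic5 in the paired libraries of 9 lines; open points are the first and filled points the second library of a line, joined by a line. Otx2 is higher in the second library of all 7 control and db/db lines and Fst is lower in it, while the corrected lines show no such shift.

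Relatives of these genes did not all move with them. In the Zic family, Zic1 and Zic4 stayed under 1 CPM in every line. Otx1 was at 0.493 ± 0.169 CPM in control and 1.13 ± 0.197 CPM in corrected lines (log2 1.17, adjusted p = 0.043, lost in 10 of 25 alternatives), the opposite direction to Otx2, and Crx stayed under 1 CPM. Pou3f2 and Pou3f4 stayed under 1 CPM in every line. Pou3f2 was lower in db7 than in db5 lines (log2 -1.03, adjusted p = 0.021) and higher in B1 than in A5 lines (log2 1.37, adjusted p = 0.013), the directions of Pou3f1. Counting each shared name as 1 sample, none of these relatives was called in db/db against control or in corrected against control lines.

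Of 11 FGF ligands and receptors, Fgf5 included, 4 were higher and 1 lower in db/db than in control lines. Of all genes, 16.9% were called there (7.41% higher, 9.5% lower). Fgf15 rose from 4.52 ± 3.0 to 13.1 ± 0.646 CPM (log2 1.54, adjusted p = 0.032), Fgf17 from 3.16 ± 0.0867 to 5.15 ± 0.851 CPM (log2 0.71, adjusted p = 0.007) and the receptor Fgfr2 from 2.24 ± 1.38 to 5.51 ± 0.561 CPM (log2 1.31, adjusted p = 0.046). Fgf10 fell by 1.92 on the log2 scale (adjusted p = 0.0055). Fgf4, the main FGF of naive cells and the most abundant ligand here, was at 420 ± 53.9 CPM in control and 399 ± 27.1 CPM in db/db lines (adjusted p = 0.6) and was lower in corrected lines (321 ± 0.549 CPM, log2 -0.39 against control, adjusted p = 0.024). In corrected against db/db lines, 2 of the 11 were higher (Fgf3 and Fgfr3) and 2 lower (Fgf4 and Fgf5), a share near the 36.7% of all genes called there. The db/db calls of Fgf15 and Fgfr2 were lost in 12 and 13 of 28 alternatives, and the call of Fgf4 in corrected against control lines in 7 of 26. None of the 11 was called in the group comparisons counting shared names.

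Around Fst, 13 genes of activin signalling were tested. In db/db against control lines Fst was the single gene called, beside 16.9% of all genes. In corrected against db/db lines 5 were higher and 1 lower, and against control lines likewise 5 and 1, beside 36.7% and 33.2% of all genes called. Smad3, an effector of activin signals, rose by 0.91 against db/db lines (28.6 ± 0.385 against 15.2 ± 1.81 CPM, adjusted p = 0.00066), and the receptor Acvr1b by 0.68 (adjusted p = 0.0023). Inhba, which encodes the activin A subunit, fell by 0.62 (3.31 ± 0.559 against 5.1 ± 0.483 CPM, adjusted p = 0.041), a call that was lost in 15 of 26 alternatives (log2 -0.80 to -0.45, adjusted p up to 0.34). Inhbb, the activin B subunit, differed between clones: 9.99 ± 0.484 CPM in db7 against 36.9 ± 1.31 CPM in db5 lines (log2 -1.89, adjusted p = 1.3e-09). Counting each shared name as 1 sample, 3 of the 13 were higher and 0 lower in corrected against db/db lines, and 2 were higher and 1 lower against control lines.

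Other genes of the primed and formative states did not move as a block. Of 24 tested, 9 were higher and 3 lower in db/db than in control lines, with a median log2 difference of 0.05 (all genes 0.00; 16.9% of all genes called). The genes named here and below had the lowest p in their list and an edgeR adjusted p under 0.05. Lef1 rose from 3.02 ± 0.584 to 7.52 ± 2.79 CPM (log2 1.32) and Etv5, an FGF target, rose by 0.18. Tead2 fell from 80.9 ± 5.85 to 53.8 ± 8.38 CPM (log2 -0.59). Lef1 lies on chromosome 3, whose genes had a median log2 level of -0.21 to 0.37, depending on the line. These levels are relative to the mean of each gene over the 10 lines. In db5 lines that median was 0.04 to 0.05, with Lef1 at 9.9 to 9.95 CPM. In db7 lines it was 0.35 to 0.37, with Lef1 at 4.72 to 5.51 CPM. The medians of chromosomes 4, 5, 13 and 14, which hold the 6 genes, lay between -0.10 and 0.07. In corrected against db/db lines, 4 of 24 were higher, among them Sall2 (log2 1.58), Cdh2 (1.11) and Tead2 (0.65), and 6 were lower, among them Etv5 (-0.37). Against control lines 5 were higher and 4 lower, with Dnmt3a at 0.81 and Lin28a at -0.73. Counting shared names left 0 of 24, 3 higher and 4 lower, and 1 lower in these comparisons.

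Between clones the list also went both ways. In db7 against db5 lines 5 were higher and 9 lower, beside 42.0% of all genes called: Dusp6, a target of FGF signalling, was higher (177 ± 0.00479 against 112 ± 0.974 CPM), while Cldn6 (6.48 ± 1.05 against 19.1 ± 0.0419 CPM), Sox3 (2.97 ± 0.348 against 9.08 ± 0.595 CPM) and Dnmt3a (31.7 ± 1.33 against 50.9 ± 0.179 CPM) were lower. In B1 against A5 lines 11 were higher and 5 lower (38.8% of all genes called), with Etv4 at 149 ± 3.98 against 70.6 ± 4.75 CPM and Fgf15 at 1.93 ± 0.0416 against 7.12 ± 0.241 CPM. The clones with more Otx2 and Fgf5 (db7) thus had less Sox3 and Dnmt3a, which mark the same states.

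**Figure D4:**
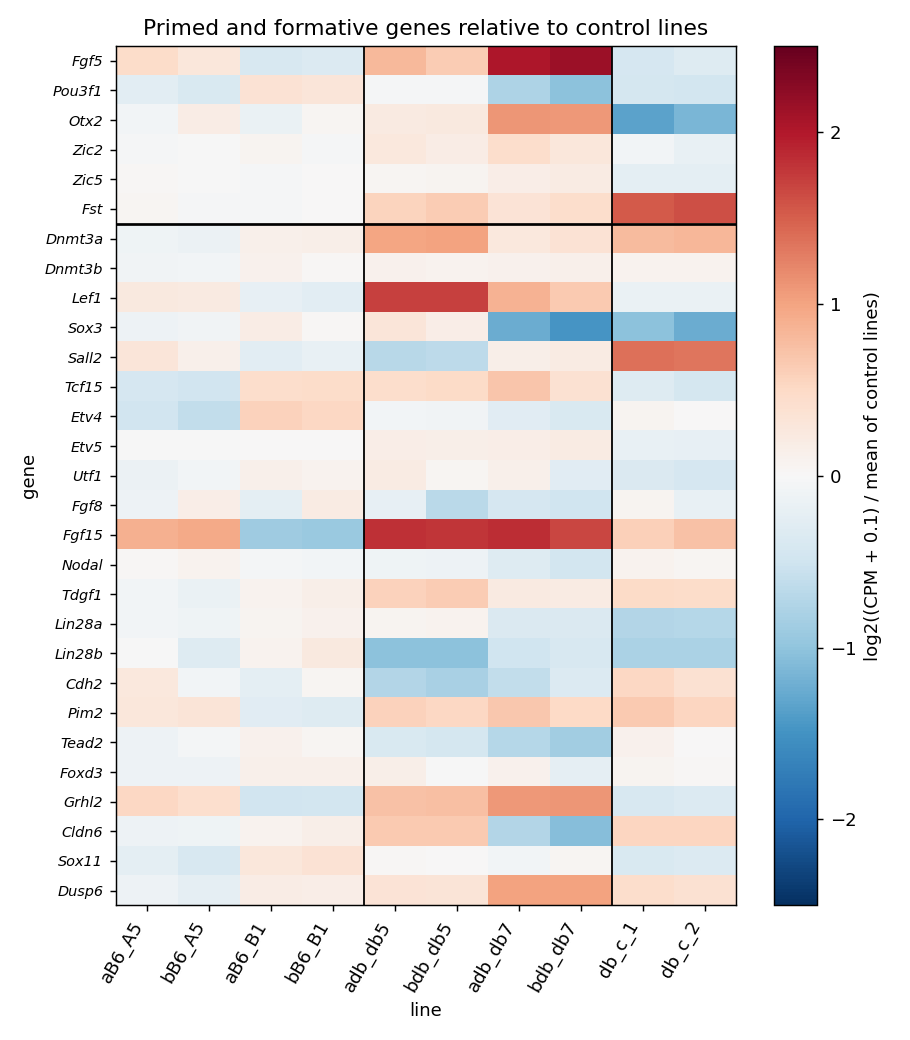
Log2 of (CPM + 0.1) relative to the mean of the control lines (colour) for the 6 genes, above the black line, and 23 other primed or formative genes (rows) in 10 lines (columns, grouped as control, db/db and corrected). Neighbouring columns of a shared name look alike, and the rows do not rise or fall as a block in any group.

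Among 18 genes of naive pluripotency, 1 was higher and 5 lower in db/db than in control lines, beside 16.9% of all genes called. Nanog was at 410 ± 20.5 against 544 ± 80.3 CPM (log2 -0.41) and Tbx3 at 257 ± 9.12 against 345 ± 41.4 CPM (log2 -0.43). In corrected lines 7 of 18 were lower and 1 higher than in db/db lines, with Nr5a2 at -0.89 and Stat3 at -0.64, and 8 lower and 0 higher than in control lines. Of all genes, 36.7% and 33.2% were called in these comparisons (18.0% and 17.0% lower). The summed level of the list was 6197 to 6601 CPM in control, 6189 to 6751 in db/db and 5594 to 5647 in corrected lines. Otx2 was lowest in the lines in which this sum was lowest. Dppa5a contributed 1367 to 2219 CPM per line to the sum, and Klf4, which the vector also carries, 551 to 681 CPM. Nanog, the 1 gene higher in corrected than in db/db lines, was at 547 ± 7.75 CPM in corrected lines.

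Some markers of other cell types differed between groups, and their lists are given beside the results. Their counts stand beside the 16.9% of all genes called in db/db against control, 36.7% in corrected against db/db and 42.0% in db7 against db5 lines. Of 17 fibroblast genes tested, 0 were higher and 11 lower in db/db than in control lines (Col1a1 fell by 1.04 and Col5a1 by 0.83), and 7 were higher and 0 lower in corrected against db/db lines; 11 were higher in db7 than in db5 lines. Their summed level was 1484 to 1555 CPM in control, 1183 to 1384 in db/db and 1155 to 1261 in corrected lines, and Twist2, Lum and Dcn stayed under 1 CPM in every line. Fn1 alone made up most of that sum, at 883 to 1183 CPM per line (1051 ± 75.6 in db/db and 906 ± 33.4 in corrected lines). Of 16 genes of extraembryonic endoderm, 2 were higher and 5 lower in db/db lines (Gata6 fell by 2.01), and 12 were higher and 1 lower in corrected against db/db lines (Col4a1 rose by 1.41 and Cubn by 3.66), the comparison in which Fst rose. Cubn was near the floor, at 0.104 ± 0.0247 CPM in db/db and 1.34 ± 0.118 CPM in corrected lines. The summed level of the endoderm list was 1420 to 1637, 1496 to 1643 and 1504 to 1563 CPM, and Foxa2, Afp, Ttr, Apoa1 and Cer1 stayed under 1 CPM in every line. Apoe and Sparc made up most of that sum, at 598 to 1124 and 292 to 449 CPM per line. Apoe was at 972 ± 122 CPM in db/db and 612 ± 19.8 CPM in corrected lines, opposite in direction to Col4a1.

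Neural progenitor genes, among which Otx2 and the Zic genes are also at home, had 1 of 10 higher (Pax6, log2 1.32) and 3 lower (among them Nes at -0.94 and Pou3f3 at -0.82) in db/db than in control lines. Pou3f3, at a mean of 0.694 CPM in control and 0.392 CPM in db/db lines, lost its call in 16 of 27 alternatives. The summed level of the 16 genes was 45.2 to 55.9 CPM in control, 31 to 41.3 in db/db and 53.1 to 55.8 in corrected lines, with 9 of them under 1 CPM in every line. It was thus lowest where Otx2 and Fgf5 were highest. Of 11 mesoderm and streak genes, 2 were higher and 4 lower in db/db lines and 5 higher and 1 lower in corrected against db/db lines, at sums of 14.6 to 15.6, 14.8 to 20.1 and 18.8 to 20.8 CPM; T, Mixl1 and Mesp1 stayed under 1 CPM. Of 9 trophoblast genes, 0 were higher and 1 lower in db/db lines and 3 higher and 1 lower in corrected against db/db lines, at sums of 42.2 to 70.6, 39.6 to 75.3 and 56.6 to 57.4 CPM, with Cdx2 and Elf5 under 1 CPM and Tpbpa at 0 in every line. In db7 against db5 lines 0 of these 9 were higher and 6 lower, beside 42.0% of all genes called. The part of these other cell types in the values of the 6 genes was not tested. In bulk RNA, fewer cells of a type and less RNA per cell cannot be told apart. Counting each shared name as 1 sample, none of these naive, fibroblast, endoderm, neural, mesoderm or trophoblast genes was called in db/db against control lines. In corrected against db/db lines 3 naive genes were lower, 3 fibroblast genes higher, and 8 endoderm genes higher and 1 lower in that fit. In the same fit 3 neural genes were higher and 1 lower, 4 mesoderm genes higher and 1 lower, and 2 trophoblast genes higher and 1 lower.

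Genes with the most similar profile were sought among 9438 named genes, as the root mean square difference of log2 CPM over the 10 lines after centring. For Pou3f1, whose own spread was 0.422, the closest were Grasp (0.082), Pkp3 (0.094), Tmem63a (0.095) and Icam1 (0.113). For Otx2 (spread 0.758) they were Ldhb and Cotl1 (0.145 each), Fblim1 (0.221) and Trmt10a (0.266). Ldhb, a subunit of lactate dehydrogenase, had mean levels of 77.8 CPM in A5, 73.1 in B1, 82.7 in db5, 137 in db7 and 34.3 in corrected lines. For Fst (spread 0.584) they were Ocln (0.108), Colec12 (0.113), Clip1 (0.125) and Zfp975 (0.135). Ocln, a tight junction protein, had 3.21, 3.62, 4.75, 3.88 and 9.91 CPM in the same order. For Zic2 they were Tefm (0.052), Arl6ip6 (0.058), Flywch1 (0.06) and Cnot8 (0.062), and for Zic5 Eaf1 (0.024), Cdc16 (0.028), Ppp2ca (0.031) and Gnl2 (0.031), but the spreads of these members were small, 0.182 and 0.142. Among the 6 genes, Zic2 and Zic5 were closest to each other (0.102), and Otx2 was nearer to Fgf5 (0.554) than to Pou3f1 (0.968). Fgf5, below 1 CPM on average, was not searched.

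Reads of related or overlapping genes could enter some of these counts. Of the 31-base words in the transcripts, 10.9% in Zic5, 8.17% in Pou3f1, 3.23% in Otx2, 2.25% in Fst, 1.64% in Fgf5 and 0.316% in Zic2 also occurred in transcripts of other genes. In Pou3f1, 301 of the 312 shared words were in Gm2164. In Zic5, 494 of the 527 were in Gm12241, whose level is not given here. The share of words alone does not rank how certain the counts are. The antisense or overlapping genes Gm2164 (Pou3f1), Otx2os1 (Otx2) and Gm47040 (Fst) reached at most 0.159, 0.252 and 0.0863 CPM in any line. Whether strand was used in counting is not given in the sources used here.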

How the data were processed

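Stranded TruSeq mRNA libraries (19, from 10 lines) had been prepared, per the labels' protocols. A table with an estimated count for each gene and library was deposited by the authors. The submitters' processing notes name kallisto and GRCm38. Version, index and strand setting were not stated in what was used here. Of 52143 gene identifiers, 51250 matched GENCODE M21 (99.4% of counts). Estimated counts were whole (within 1e-06) for 79.7% of values and were rounded per library, then summed per line.

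Groups came from the sample labels. After filterByExpr, 19700 genes remained; they were TMM-scaled and entered the quasi-likelihood F-test of edgeR 4.0.16 (R 4.3.3) with Benjamini-Hochberg adjustment over all tested genes and a threshold of 0.05. The group comparisons used a fit of 3 groups, and the clone comparisons a fit of the 5 shared names over all 10 lines. A standard error is the log2 difference divided by the root of F, and 95% intervals use the moderated degrees of freedom. The script was tested on simulated data. The 6 genes and all gene lists were chosen with earlier results of these data known. Named genes are all 6, the family members, up to 4 genes with the lowest p per list, and the 4 closest profiles per gene (mean of at least 5 CPM). Some genes that this rule names are not reported here. Lists were described by counts and not tested as sets.

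Alternatives were other scaling (DESeq2's size factors, upper quartile, library size alone), DESeq2 1.42.0, limma-voom (limma 3.58.1) with the line as a random effect, other filters, single libraries as samples (without or with a block for the number of the duplicate), the shared name as the unit, fits of only the compared groups, and leaving out each line or the second library of adb_db7. Leaving out both lines of a shared name and using libraries of a single number were added after the data were seen. The numbers 1 and 2 were checked as pairs: deviations of same-numbered libraries correlated over 9148 genes at 0.011 to 0.531 in 12 combinations of control and db/db lines (11 above 0.1), and by ranks at 0.141 to 0.547. As 1 combination was below 0.1, the number was not treated as pairing. Python 3.11.15, pandas 2.3.3 and matplotlib 3.10.9 made tables and figures. Sequences are from RefSeq (GRCm38.p6).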

Additional observations from a re-analysis of the deposited data

Results flagged for a closer look

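Among the control lines, the Zic2 level of aB6_B1 (44.5 CPM) stood apart from the other 3 lines (41.3 to 41.8 CPM) by more than Dixon's 95% limit for 4 samples. Chance alone marks about 1 in 20 groups of this size, and the level remains below that of every db/db line.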

How the results depend on the processing

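Over 751 combinations of a gene of the 6, a comparison and an alternative, 672 kept the call, 67 lost it, 12 gained one and 0 turned a called direction. Of 5864 such combinations for other named genes, 5 turned: Cldn6 (-0.92 without both db5 lines) and Sox11 (0.33 without both B1 lines) in db/db against control, Fgfr2 (1.01 without both A5 lines) and Etv4 (0.59 without both B1 lines) in corrected against control, and Col5a1 (-0.028 in libraries numbered 1) in B1 against A5. The cause was not tested.

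In db/db against control, the 3332 genes called became 34 with the shared name as the unit, 7247 with each library as a sample and no block, and 7337 with the duplicate number as a replicate block. They became 5397 without both A5 lines, 5410 without both db5 lines, and 1991 to 3211 without single lines. The 4 genes of the 6 called became 0 with the shared name as the unit, 2 in libraries numbered 1, 1 in those numbered 2, 2 without both B1 or both db7 lines, and 2 to 4 without single lines; Fgf5 lost its call without aB6_B1, bB6_B1, adb_db7 or bdb_db7 (log2 1.55 to 1.69, adjusted p = 0.054 to 0.065), and Otx2 without any of the 4 control lines, adb_db7, bdb_db7, db_c_1 or db_c_2 (log2 0.58 to 0.79, adjusted p = 0.052 to 0.11). The replicate block changed these calls: Zic5 in db/db against control (0.13, adjusted p = 0.016), Zic2 in db7 against db5 (0.14, adjusted p = 0.034) and Otx2 in B1 against A5 (-0.24, adjusted p = 0.0091) were called with it. Single libraries as samples overstate the number of replicates.

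In corrected against db/db, the shared name as the unit called 3281 of 7235 genes, and leaving out single lines 3113 to 7638 genes and 3 to 5 of the 6, lowest without a corrected line (Fgf5 had an adjusted p of 0.095 without db_c_1 and 0.08 without db_c_2, and Zic2 0.061 without db_c_2). In corrected against control these were 2547 of 6537, 2377 to 7236, and 1 to 3 (Otx2 had an adjusted p of 0.077 without db_c_1 and 0.051 without db_c_2). In db7 against db5, 3 of the 6 in place of 5 were called by DESeq2, by a fit of the compared lines alone and in libraries numbered 2, and 3 to 5 without single lines (5976 to 9590 genes). In B1 against A5, 1 in place of 2 was called by DESeq2, with at least 1 CPM in 4 lines (Fgf5 is then not tested), in libraries numbered 2 (5036 genes in place of 7651), and 1 to 2 without single lines (Fgf5 lost its call without each of the 4 control lines, adjusted p = 0.056 to 0.083). Fgf5 is limited by depth, with 4 to 16 counts in each control library.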
